A study of Mus musculus with 4 samples.

Results

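Mature neutrophils were examined in the CD45+ cells of the mouse spinal cord at 14 days post injury (dpi). A cell was taken when its barcode held at least 600 genes, at most 10% mitochondrial UMIs (unique molecular identifiers, the counted RNA molecules), at least 0.2% of UMIs from S100a8 and S100a9 together, and a UMI of at least 3 of Csf3r, Cxcr2, Il1r2, Hdc, G0s2, Mmp9 and Retnlg. Cells with any UMI of Csf1r, Cd3e, Cd79a, Elane, Mpo or Mki67 were left out. This gate held 666 of the 11631 barcodes of the 14 dpi library, of 31660 barcodes in the series. The cells were then ordered by the share of their UMIs that came from Ltf, Camp and Ngp, which chose the members of 3 sets of 222 cells each, the granule-high, middle and granule-low set. The cells and sets were thus selected on measured values.

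The study sorted CD45+ cells from C57BL/6 mice and sequenced them as 4 libraries of 10x 3′ UMI counts, 1 per condition. The 14 dpi and 3 dpi libraries came from mice with a spinal cord contusion at T10, dissociated with actinomycin D (ActD), a blocker of transcription, (45 µM while digesting the tissue, 3 µM in all later cold solutions). The 2 sham libraries came from mice operated on without the contusion, labelled with time point 0, one dissociated with the same ActD protocol and one with the standard protocol. The mice were operated on at 3 months of age, were of both sexes and were pooled within a library, so that no value below has a replicate and no test between conditions was possible. The intervals given are 95% intervals that cover counting error only.

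Neutrophils leave the bone marrow after they have filled their granules in a fixed order. Primary (azurophil) granules are made first, then secondary (specific) granules with lactoferrin (Ltf), the cathelicidin Camp and the neutrophilic granule protein Ngp, then gelatinase granules with Mmp9 and last the secretory vesicles. Transcription of each granule class ends as the next begins, and receptors for chemoattractants and growth factors, such as Cxcr2 and Csf3r, come late. The transcription factor C/EBP-epsilon, encoded by Cebpe, drives the secondary granule genes.

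All 3 ordering genes lie on chromosome 9 in mm10. Ltf (ENSMUSG00000032496) spans chr9:111019271-111042767 on the plus strand, Ngp (ENSMUSG00000032484) chr9:110419747-110423012 on the plus strand and Camp (ENSMUSG00000038357) chr9:109847379-109849617 on the minus strand. The 250 bases before their RefSeq starts (GRCm38.p6, the same assembly as mm10) were searched. Those that lie outside the gene spans just given are shown, with the bases before Il1b, a gene at the other end of the order. The 3 ordering genes define the order, so that they move together along it is by construction. Capitals mark the letters TTGCNNAA on either strand (TTNNGCAA on the other), a C/EBP-type motif that can overlap itself.
Ltf, chr9:111019042-111019270, plus strand: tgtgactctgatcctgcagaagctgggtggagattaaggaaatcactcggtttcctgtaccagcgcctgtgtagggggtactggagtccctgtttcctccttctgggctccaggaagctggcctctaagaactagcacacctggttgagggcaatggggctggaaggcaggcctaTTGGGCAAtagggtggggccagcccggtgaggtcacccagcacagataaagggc
Camp, chr9:109849618-109849706, minus strand: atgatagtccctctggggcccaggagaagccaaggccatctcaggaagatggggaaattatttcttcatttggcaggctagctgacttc
Ngp, chr9:110419558-110419746, plus strand: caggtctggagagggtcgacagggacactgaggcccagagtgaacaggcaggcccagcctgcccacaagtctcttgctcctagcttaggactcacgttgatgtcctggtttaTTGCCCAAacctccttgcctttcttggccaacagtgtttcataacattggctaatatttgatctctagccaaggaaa
Il1b, chr2:129371140-129371389, minus strand: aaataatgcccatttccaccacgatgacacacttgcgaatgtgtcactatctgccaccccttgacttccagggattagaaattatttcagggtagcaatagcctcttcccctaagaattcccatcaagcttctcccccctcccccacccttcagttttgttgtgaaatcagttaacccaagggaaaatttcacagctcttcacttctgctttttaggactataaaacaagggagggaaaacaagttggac
The spans come from GENCODE M21, which starts these 3 genes further upstream than RefSeq, so that 21 bases of the Ltf window, 161 of the Camp window and 61 of the Ngp window fell inside the gene and are not shown. The motif occurred 1 time in the Ltf window, 2 times in the Ngp window, 1 of them inside the gene as GENCODE gives it, and 0 times in those of Camp and Il1b. Of all 27025 genes with a RefSeq promoter, 10.8% held it in the same window. Of the genes that were most raised in the granule-high set (named below), 7 had a promoter in the table and 2 held the motif (Fcnb and Inhba), and of those most lowered, 0 of 8 did. A match is a description of letters and not a binding site.

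The 6 neutrophil markers fixed for this work were all detected in the gate. S100a9, a subunit of the calprotectin complex, was found in 666 of 666 cells and its partner S100a8 in 665. Cxcr2, the receptor for the CXC chemokines that draw neutrophils, was found in 622 cells, Retnlg, a secreted resistin-like protein, in 599, and Csf3r, the receptor for granulocyte colony-stimulating factor, in 557. Ly6g, the surface protein behind the Gr-1 antibody, was found in 452 cells. Retnlg, Cxcr2 and Csf3r were among the genes of the gate, so their presence was partly set by it, whereas Ly6g was not.

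In 14 dpi T cells thinned to 1000 UMIs a cell, a cell type that should lack these genes, Ly6g gave a UMI in 0.482% of cells, Cxcr2 in 1.13% and Retnlg in 5.31%. The same thinning gave 39.3%, 61.1% and 82.4% in the gate. Without thinning the T cells, with a median of 5230.5 UMIs, gave 1.77%, 3.86% and 16.2%, and the gate 67.9%, 93.4% and 89.9%. Of these genes only Ly6g bears on the label independently of the gate, and it was found in 73 of the 222 cells of the granule-low set defined above. The granule-high set, in turn, held 146 cells with a UMI of Cebpe and had the lower Cxcr2 and Csf3r levels given below, so the word mature fits the 2 ends of the order unequally, and the cells are named here by the gate. The lowest S100a8 and S100a9 shares inside the gate were 0.249%, 0.261% and 0.421%, and the highest shares among cells that missed the gate for this alone were 0.162%, 0.148% and 0.121%. Exactly 3 of the 7 receptor and enzyme genes were seen in 24 cells inside, and 2 of the 7 in 16 cells left out for that alone.

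The gate took 6.12% (Clopper-Pearson interval 5.68 to 6.59) of the 10879 filtered cells at 14 dpi. It took 7.68% (7.16 to 8.24) at 3 dpi, 3.14% (2.7 to 3.62) in the standard sham and 1.77% (1.26 to 2.41) in the ActD sham, or 732, 180 and 39 cells. The median depth was 5007.5 UMIs a cell at 14 dpi, 2357.5 at 3 dpi, 5753.5 in the standard sham and 12568 in the ActD sham. A Csf1r UMI alone kept 454 further 14 dpi cells out, and 231 of them had exactly 1. After thinning to 1000 UMIs, 15.7% (13.6 to 18.0) of the cells that met every other criterion had a Csf1r UMI, below the 23.8% (21.4 to 26.2) of 1229 T cells taken for this purpose whether or not they held Csf1r, at median depths of 5787 and 6316 UMIs and shares of 40.5% and 48.1% before thinning. With Csf1r not used, the gate held 1120 cells. The 3 dpi and 14 dpi libraries shared 36 cell barcodes, 1 of them in both gates, and no other pair of libraries shared a barcode in the gates.

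Markers of other cell types were low in the gate. Of the T cell markers, 6 of 7 were detected at 25.3 CPM summed (CPM is the UMIs of a gene for every 1000000 UMIs of the same cells), against 4868 CPM in T cells, and Cd3e was at 0 by the rule. The 10 microglial markers summed to 930 CPM, led by C1qa at 243 CPM, against 977 CPM in the T cells, and the 8 macrophage markers to 2641.9 CPM, of which Apoe gave 2555.8 CPM, against 2583.6 CPM in the T cells. Of 6 monocyte markers, 5 were detected at 935 CPM, led by Ly6c2 at 884 CPM, with Csf1r at 0. The 4 eosinophil markers summed to 7.76 CPM with Epx at 0. A single cell carried 106 UMIs of Mcpt8 and 201 of Prss34, both made by basophils, and was the cell with the lowest S100a8 and S100a9 share in the gate.

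Among cells with sex-linked UMIs of one kind, 86.2% were male (219 of the male kind and 35 of the female kind), against 35.9% of the T cells and 47.6% of the microglia of the same library. The share was 53.7% at 3 dpi, 26.3% in the ActD sham and 24.4% in the standard sham. Comparisons between libraries therefore also compared mixtures of mice of different sex.

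The granule share ran from 0 to 14.2% of a cell's UMIs. It was 2.06 to 14.2% in the granule-high set (median 8.11%), 0.0459 to 2.05% in the middle set (median 0.224%) and 0 to 0.0458% in the granule-low set, where 139 cells had none. T cells had a median share of 0.0142% and a 90th percentile of 0.0431%, so the granule-low set lay at about the level of cells that do not make these proteins. Depth moved with the order, with median UMIs of 9661, 4775.5 and 2808.5 and median genes of 1818.5, 1207 and 959.5 from the high to the low set, and the male share was 92.0%, 85.9% and 76.6%. Neither depth nor sex was held fixed in the comparisons that follow, except in the thinned shares and in the alternatives by depth or sex. The plot of cells in granule order shows the granule share and the depth.

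**Figure D1:**
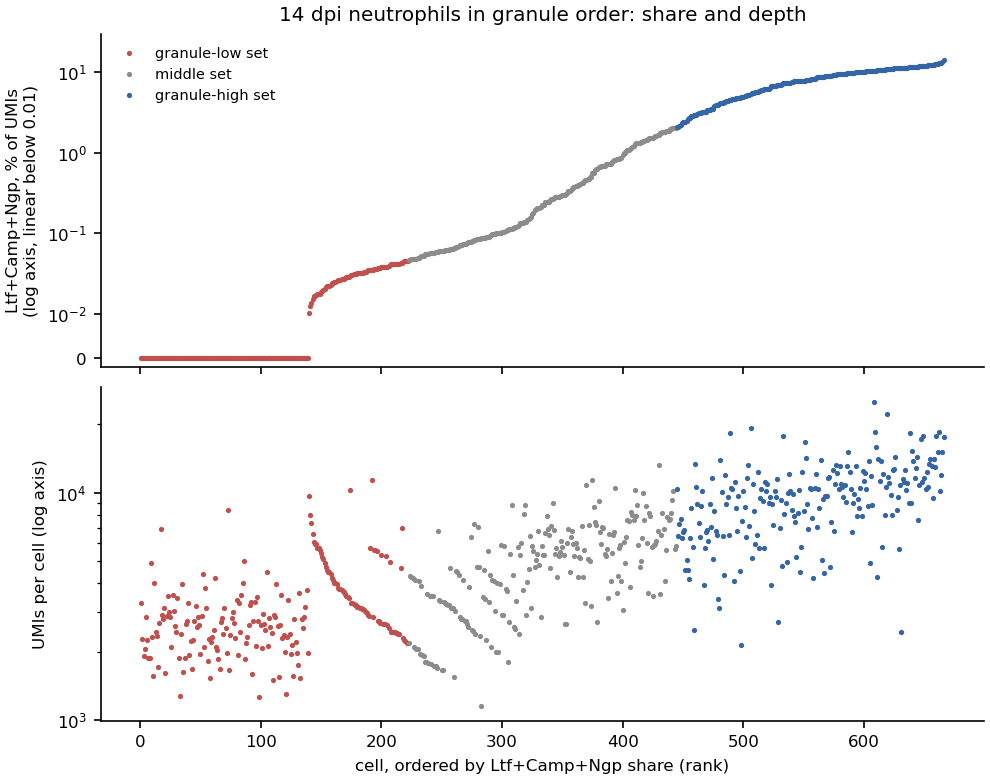
Each point is 1 of the 666 14 dpi neutrophils, ordered by the share of UMIs from Ltf, Camp and Ngp, with that share above and the UMIs of the cell below, coloured by set. The share is 0 in 139 cells and reaches 14.2%, and the cells of the granule-high set are the deepest, with a median of 9661 UMIs.

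The order of the cells chose these sets, so the differences between them are a description. In the granule-high set 132 of 1377 genes (those with at least 200 UMIs over both sets) were at least 2-fold higher, which is 9.59%, and 383 (27.8%) at least 2-fold lower. The median log2 ratio of all these genes was -0.43, and scaling by TMM factors (trimmed mean of M-values) added 0.56 to every log2 ratio and turned the split into 258 higher and 212 lower. Log2 ratios below are on the unscaled CPM with 0.5 UMI added, and are to be read against -0.43. Scaling by totals without S100a8, S100a9, Ltf, Camp and Ngp, an alternative chosen after seeing the data, gave 262 higher and 205 lower. With only cells of 2000 to 5000 UMIs (also chosen after seeing the data) 23 of 359 genes tested were higher and 76 lower, of which 18 and 76 were among the genes above, and none of the genes above that were tested was 2-fold the other way. With cells of at least 5000 UMIs the counts were 56 and 140 of 899 genes tested, of which 47 and 117 were among the genes above, with 1 of the higher genes 2-fold lower.

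Secondary granule genes ran with the order. Of 17, 16 had at least 20 UMIs over both sets, 12 were at least 2-fold higher and 0 lower in the granule-high set, with a median of 3.34, against 9.66% higher, 25.8% lower and a median of -0.39 among all 5898 genes with at least 20 UMIs. Ltf, Camp and Ngp were among the 12 by construction, and without them 9 of 13 were higher and 0 lower, with a median of 2.80. Lcn2, the iron-siderophore-binding lipocalin, was at 17708 CPM in the high, 7924.9 in the middle and 2543.7 in the low set (log2 ratio 2.80, 2.73 to 2.87). Chil3, a chitinase-like secreted protein, was at 3047.9, 107 and 23.9 CPM (6.96, 6.32 to 7.78). Chil3 thus fell by the middle set, whereas Lcn2 fell more evenly.

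Cybb, the membrane subunit of the NADPH oxidase, was at 1873.5, 371 and 88.4 CPM (4.39, 4.05 to 4.79). Mmp8, the neutrophil collagenase, was highest in the middle set, at 3287.3 CPM, against 2300 in the high and 927 in the low set. Hp, haptoglobin, differed little, at 1885.9, 2086.3 and 1989.2 CPM (-0.08, -0.16 to 0.01, positive under TMM scaling). Pglyrp1, a peptidoglycan recognition protein, was at 3500.2 CPM in the high and 1834.8 in the low set (0.93, 0.85 to 1.02). So the secondary granule genes did not all share the position of Ltf, Camp and Ngp.

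Cebpe was at 323 CPM in the high set, 30.6 in the middle and 11.2 in the low set (4.76, 3.86 to 6.06). Cebpb, the family member that runs emergency granulopoiesis, went the other way, at 283, 1182.1 and 2366.8 CPM (-3.06, -3.20 to -2.93). Of 15 genes on the list of granulocyte transcription factors with enough UMIs, 2 were at least 2-fold higher (Cebpe and Myb) and 8 lower, with a median of -1.23. Myb, a progenitor factor, had 38 UMIs against 0 and was at least 4.16-fold higher. Spi1, which encodes PU.1, was at 463 against 875 CPM (-0.92, -1.06 to -0.77). Klf2 was at 401 against 1134.3 CPM (-1.50, -1.64 to -1.36), and Lcp1, an actin-bundling plastin that is not a transcription factor but stood on the list, at 1274.3 against 2243.3 CPM (-0.82, -0.91 to -0.73).

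The genes with the largest ratios outside the ordering genes were Orm1, Chil3, Abca13, Fcnb, Golim4, Serpinb1a, Itgb2l, Inhba, Cebpe and Zmpste24. Orm1, an acute-phase glycoprotein, had 228 UMIs against 0 and was at least 24.9-fold higher, with 3 UMIs taken as the floor over the group. Fcnb, the lectin ficolin B, had 224 UMIs in 44 cells against 1 UMI (5.62, 3.71 to 11.51). Serpinb1a, the inhibitor of neutrophil serine proteases, was at 659 against 14.0 CPM (5.48, 4.67 to 6.62), and Itgb2l, an integrin beta subunit, at 259 against 5.62 CPM (5.36, 4.16 to 7.41).

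Genes on the primary granule list went both ways on the unscaled values. Serpinb1a, which inhibits neutrophil serine proteases and is not one of them, stood on this list. Of 8 with enough UMIs, 3 were at least 2-fold higher (Serpinb1a, Lyz2 and Ms4a3, the last on 23 UMIs against 3, 1.14, -0.40 to 3.71) and 1 lower, with a median of 0.06. Among all genes with at least 20 UMIs, 9.66% were higher and 25.8% lower, with a median of -0.39. Under TMM scaling 4 of the 8 were higher and 0 lower, with a median of 0.62. Lyz2, lysozyme, was at 11388.4, 5828.7 and 3647.1 CPM from the high to the low set (1.64, 1.58 to 1.70). Prtn3, proteinase 3, was near its floor at 15.2 against 23.9 CPM (-0.67, -1.54 to 0.29), and Elane and Mpo were at 0 by the rule. Cd63, a tetraspanin of granule membranes, was at 396 against 272 CPM (0.54, 0.31 to 0.77). Gusb, a lysosomal enzyme, differed less than 2-fold (20.3 against 26.7 CPM, -0.42, -1.20 to 0.46, positive under TMM scaling).

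The gelatinase granule and secretory vesicle genes summed to 47256.1 CPM in the middle set, 15078.3 in the high and 24927.4 in the low set, a peak that came from Retnlg, a gene of the gate, at 41064.8, 11132.8 and 17817.1 CPM. Without Retnlg the list was highest in the granule-low set, at 6191.3, 3945.5 and 7110.3 CPM in the middle, high and low set, and without Mmp9 as well at 3897.2, 2185.3 and 5679.8 CPM. Mmp9, gelatinase B, was at 2294.1, 1760.2 and 1430.5 CPM in the same order. Between the outer sets 2 of 14 were at least 2-fold higher in the high set (Mmp25 and Itgam) and 7 lower, with a median of -0.93. Without Retnlg and Mmp9, which were genes of the gate, the median was -1.22.

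Clec4d, a C-type lectin receptor that signals through the Fc receptor gamma chain, had the lowest ratio of the list, at 66.8, 744 and 1454.3 CPM (-4.44, -4.71 to -4.19). Cd14, the lipopolysaccharide co-receptor, was at 60.3, 202 and 992 CPM (-4.04, -4.32 to -3.77). Clec4e, the lectin receptor Mincle, was at 218 in the high and 934 CPM in the low set (-2.10, -2.27 to -1.93). Clec4d and Cd14 therefore stood with the late receptors below and not with Mmp9.

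In 10 bins of 66 or 67 cells the peaks came one after another. Ltf, Camp, Ngp, Lcn2, Chil3 and Cebpe were highest in the bin with the highest granule share (bin 10). Ly6g was highest in bin 9 at 1168 CPM and fell to 153 CPM in bin 1. Mmp8 peaked in bin 7 at 4098.1 CPM, with 970 in bin 10 and 625 in bin 1, and Mmp9 in bin 7 at 2548.4 CPM.

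Retnlg peaked in bin 6 at 45130.4 CPM, with 1716.1 in bin 10 and 9952.5 in bin 1. Cxcr2, at 191 CPM in bin 10, reached 2055.2 CPM in bin 1, and Il1b, encoding interleukin-1 beta, rose from 92.3 CPM in bin 10 to 8247.8 in bin 2. The cells of bins 1 and 2, 67 in each, all had no granule UMI, so those bins have no order between them. Median depth went from 11756 UMIs in bin 10 to 2450 in bin 1. The plot of 9 genes over the bins shows the courses.

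**Figure D2:**
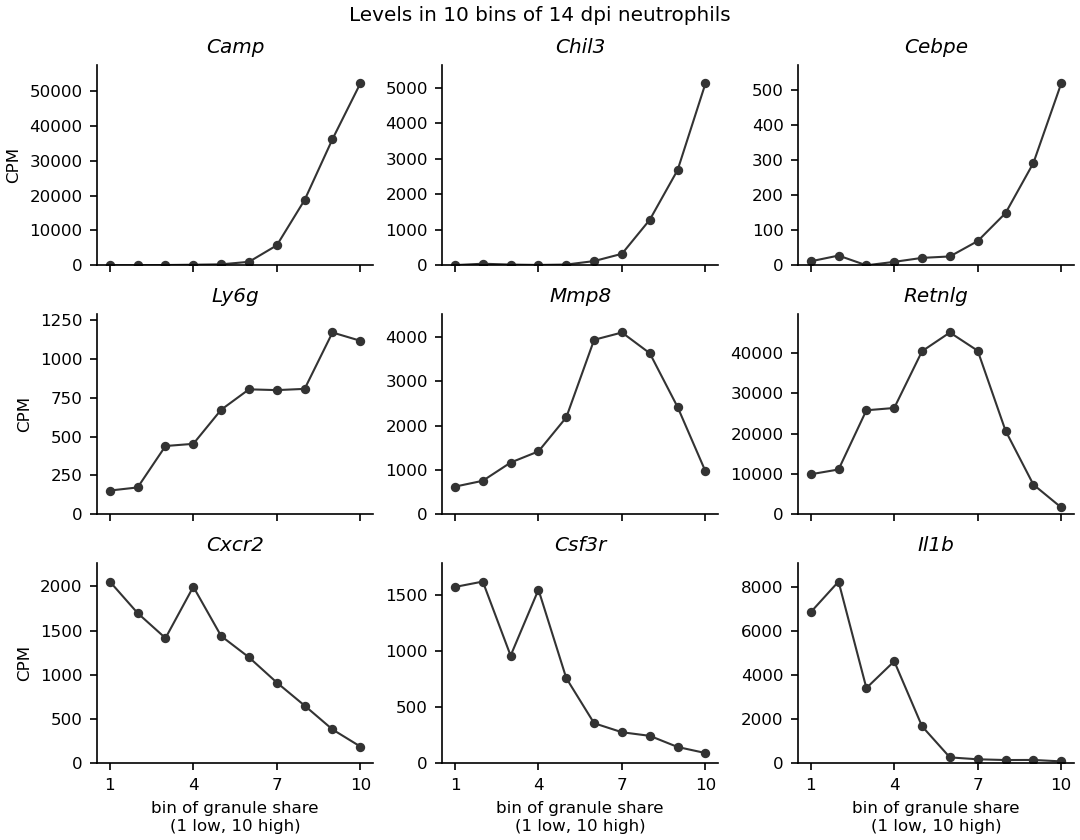
Level of 9 genes in CPM (y axis, each from 0) in 10 bins of the 14 dpi neutrophils ordered by granule share (x axis, 1 low to 10 high), 1 point per bin of summed cells, with no replicate. Camp, Chil3 and Cebpe peak in bin 10, Ly6g in bin 9, Mmp8 in bin 7, Retnlg in bin 6, and Cxcr2, Csf3r and Il1b in bins 1 and 2, which both hold only cells with no granule UMI.

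The list of mature neutrophil receptors, which also held Hdc and G0s2 that are not receptors, went against the order. Of 18, 1 was at least 2-fold higher in the granule-high set (Ltb4r1, the leukotriene B4 receptor) and 16 lower, with a median of -2.14. The gate had used 5 of these genes, Cxcr2, Csf3r, Il1r2, Hdc and G0s2, and a shallow cell is less likely to pass it at the same share of UMIs from such genes, so their levels in the shallower granule-low set were partly set by the rule. Without the 5, 1 of 13 was higher and 11 lower, with a median of -2. Cxcr2 was at 424, 1273.9 and 1712.6 CPM from the high to the low set (-2.01, -2.14 to -1.89). Csf3r was at 160, 567 and 1361.7 CPM (-3.09, -3.27 to -2.91). Ccr1, a chemokine receptor, was at 227 CPM in the high and 910 in the low set (-2, -2.18 to -1.83).

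Cxcr4, the receptor that returns aged neutrophils to the marrow, was at 79.2, 95.4 and 236 CPM (-1.57, -1.89 to -1.26). After thinning to 1000 UMIs, Cxcr2 gave a UMI in 30.2%, 70.7% and 73.4% of cells from the high to the low set, and Csf3r in 14.9%, 45% and 74.3% (n = 222 cells in each). Without thinning the shares were 90.5%, 95.9% and 93.7% for Cxcr2 and 64%, 90.1% and 96.8% for Csf3r.

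Inflammatory genes were the lowest list in the granule-high set. Of 14 with enough UMIs, 0 were at least 2-fold higher and 12 lower, with a median of -4.69, and the list summed to 820, 5788.3 and 18621.5 CPM from the high to the low set. Il1b was at 149, 1081.4 and 5672.8 CPM (-5.25, -5.42 to -5.09), and Cxcl2, a neutrophil-attracting chemokine, at 318, 2248.2 and 7701.3 CPM (-4.60, -4.72 to -4.48). Ccl4 was at 18.4, 465 and 1159.5 CPM (-5.96, -6.47 to -5.52), but in 49 of the 222 granule-low cells, with 125 of its 826 UMIs in 1 of them. Il1b was in 209 of the 222. Ccl6, a chemokine, was at 69.5 against 1909.2 CPM (-4.77, -5.03 to -4.54), and Osm, the cytokine oncostatin M, at 110 against 438 CPM (-1.99, -2.24 to -1.74).

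Markers of several other cell types were higher in the granule-low set, while Ly6c2 of the monocyte list was lower. The macrophage list summed to 1913.1, 3126.2 and 4107.5 CPM from the high to the low set, led by Apoe at 1866.1, 3020.1 and 3933.5 CPM, and the microglial list to 684, 1103.9 and 1406.6 CPM. The NK cell list summed to 20.3, 19.8 and 351 CPM, led by Gzma at 198 CPM in the low set, with 97 of the 155 Gzma UMIs of the gate in 1 cell. The eosinophil list summed to 0.921, 8.1 and 28.1 CPM. The monocyte list summed to 1044.5, 1041.8 and 434 CPM, of which Ly6c2 gave 1015.5, 964 and 355 CPM. The fall of the monocyte list was thus that of Ly6c2, and its other markers did not share it. After thinning to 1000 UMIs, Il1b gave a UMI in 83.8% (78.3 to 88.4) of granule-low cells, 1.45% of T cells and 3.72% of microglia, and without thinning in 94.1%, 4.18% and 16%. The part of these markers in the result was not tested.

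Genes of the interferon response were lower too, 17 of 20, with 1 higher and a median of -2.64. Ifitm1 was at 92.1, 1601.4 and 6072.9 CPM (-6.04, -6.25 to -5.84), and Isg15, the ubiquitin-like modifier, at 109, 353 and 1683.2 CPM (-3.95, -4.16 to -3.75). The exception was Ifitm6, at 4816.9, 2865.3 and 762 CPM (2.66, 2.54 to 2.79), opposite to Ifitm1 and Ifitm2. Ifitm3 was at 1600.4 against 2598.4 CPM (-0.70, -0.78 to -0.62). Genes of the Ifitm family are similar in sequence, and reads could have been split between them.

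Immediate early genes were at least 2-fold lower in 19 of 19, with a median of -2.85. Dusp1, a phosphatase of MAP kinases, was at 328, 1128.1 and 2453.9 CPM (-2.90, -3.03 to -2.78) and Junb, an AP-1 subunit, at 374, 959 and 2170.3 CPM (-2.54, -2.66 to -2.41). Fos, its partner in AP-1, was at 598 against 1895.1 CPM (-1.66, -1.77 to -1.55). Zfp36, which destabilises cytokine mRNAs, was at 384 against 1528.7 CPM (-1.99, -2.13 to -1.86), and Nfkbia, the inhibitor of NF-kB, at 206 against 1702.8 CPM (-3.04, -3.20 to -2.89).

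Of 18 survival and apoptosis genes, 11 were lower and 0 higher, with a median of -1.53. Mcl1, on which neutrophil survival rests, was at 589, 1482.6 and 2686.9 CPM (-2.19, -2.29 to -2.09). Pim1, a survival kinase, was at 66.3 against 1024.8 CPM (-3.95, -4.22 to -3.69). Less than 2-fold apart were Cflar and Xiap, inhibitors of apoptosis (-0.63 and -0.52, the latter positive under TMM scaling).

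The other genes with the lowest ratios were Prss34, Wfdc17, Ccrl2, H2-Q10, Hcar2, Nlrp3 and Acod1. Wfdc17, a small secreted WAP-domain protein, was at 56.2 against 5027 CPM (-6.48, -6.76 to -6.22), Nlrp3, the inflammasome sensor, at 6.45 against 279 CPM (-5.39, -6.33 to -4.66), and Acod1, which makes itaconate, at 15.7 against 628 CPM (-5.31, -5.87 to -4.82). H2-Q10 belongs to a family of near-identical genes, and its reads could have been split. Prss34 stood on the list through the basophil-marked cell, which held 201 of its 203 UMIs in the granule-low set.

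Of 79 nuclear oxidative phosphorylation genes 5 were higher and 3 lower (median 0.16), of 77 cytosolic ribosomal protein genes 0 and 5 (median -0.50, just above 0 under TMM scaling), of 5 MHC class II genes 0 and 3 (median -1.08), and of 7 cell cycle genes 1 and 5 (median -1.27, in cells without a UMI of Mki67 by the rule). Under TMM scaling 0 MHC class II genes and 1 cell cycle gene were 2-fold lower. The medians of the S100 family (-0.09, 1 higher and 4 lower of 8), glycolysis (-0.36, 1 and 8 of 20), NADPH oxidase (-0.25, 1 and 4 of 15) and adhesion (-0.09, 4 and 7 of 22) lists turned positive under TMM scaling, at 0.48, 0.20, 0.31 and 0.47. Within the S100 family S100a8 and S100a9 were higher in the high set by 0.94 and 0.85 on the log2 scale, and S100a6 and S100a11 lower, at -1.02 and -1.15. S100a13 was at 201 against 101 CPM (0.99, 0.63 to 1.37). The plot of list members shows each list around its median.

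**Figure D3:**
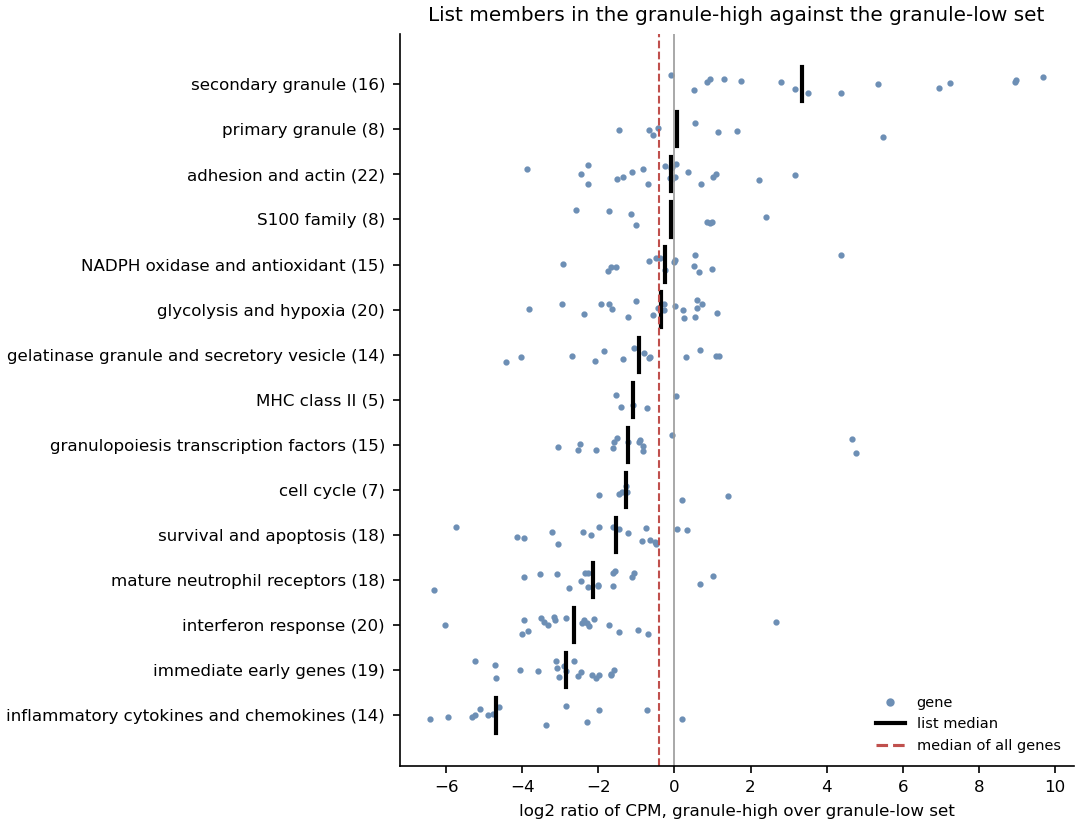
Log2 ratio of CPM between the granule-high and granule-low set at 14 dpi (x axis) for members of 15 gene lists (y axis, number of genes with at least 20 UMIs in brackets), 1 point per gene, black bar the list median, dashed line the median of all genes (-0.39), vertical scatter only for display. Secondary granule genes lie to the right (median 3.34), and interferon, immediate early and inflammatory genes lie furthest to the left (medians -2.64, -2.85 and -4.69).

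Within the granule-low set, thinned to 1000 UMIs, 186 of 222 cells had an Il1b UMI and 80 of them also an Isg15 UMI, 43.0%, against 11.1% of the cells without Il1b and 21.2% of T cells. Cxcl2 was found in 82.3% of cells with Il1b and 52.8% of those without. Ly6g was found in 16.1% of cells with Il1b and 16.7% of those without. Ccl4 was found in 15.6% of cells with Il1b and 19.4% of those without. Il1b and Isg15 thus occurred in some of the same cells of this set, and neither Ly6g nor Ccl4 was more frequent with Il1b than without.

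The same ordering was applied to the sham libraries, whose cells had no part in choosing the 14 dpi sets. Depth moved with the order there too and was not held fixed. Median UMIs in the granule-high and granule-low sets were 8719.5 and 3872.5 in the standard sham, and 22647 and 8336 in the ActD sham. In the standard sham (60 cells a side), of the 130 genes 2-fold higher at 14 dpi that had at least 20 UMIs there, 70 (53.8%) were 2-fold higher and 0 lower, against 7.9% of all genes, with Ltf, Camp and Ngp among the 130 and higher by construction. Of 374 genes lower at 14 dpi, 194 (51.9%) were lower and 1 higher, against 19.5%. In the ActD sham (13 cells a side) 76 of 127 were higher and 1 lower (background 13% higher), and 194 of 346 lower and 3 higher (background 19.5% lower).

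Of the 10 highest genes at 14 dpi, 9 had enough UMIs in the standard sham and 8 in the ActD sham, and all of these were 2-fold higher there. Of the 10 lowest, 9 and 4 had enough UMIs, and all of these were 2-fold lower. Secondary granule genes without Ltf, Camp and Ngp, which ordered the sham cells too, were 2-fold higher in 7 of 13 in the standard sham (median 2.04) and 6 of 12 in the ActD sham, where 1 was lower (median 0.89). Immediate early genes were lower in 13 of 19 (-1.35) and 10 of 13 (-1.44), and interferon genes lower in 7 of 13 (-1.69) and 14 of 20 (-1.42). The ribosomal protein genes turned direction in the ActD sham, with 30 of 74 at least 2-fold higher and 0 lower (median 0.76). In the standard sham they did not, with 0 higher and 1 lower of 75 (median -0.32). Il1b was at 442 against 4510.9 CPM in the standard sham. The granule-low set of the ActD sham had inflammatory genes at 3357.9 CPM summed, that of the standard sham at 15854.3 and that of 14 dpi at 18621.5.

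At 3 dpi 638 of 732 cells had no UMI of Ltf, Camp or Ngp, so the sets could not be formed there. The plot of the named genes in the 3 libraries gives their intervals.

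**Figure D4:**
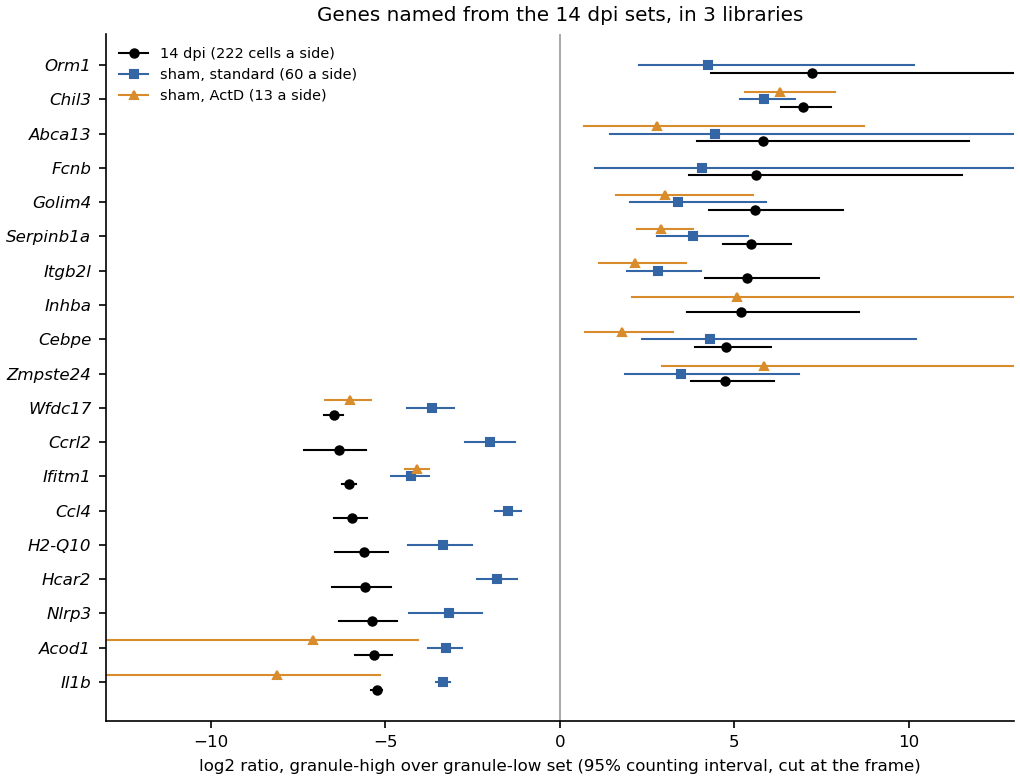
Log2 ratio between the granule-high and granule-low set (x axis) in the 14 dpi, standard sham and ActD sham libraries for the genes with the highest and lowest ratios at 14 dpi, where a gene had at least 20 UMIs, with 95% counting intervals. The sham points lie on the same side of 0 as the 14 dpi points for all genes drawn. Prss34 is left out because 1 cell held 201 of its 203 UMIs in the granule-low set.

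The 14 dpi cells were then set against the 3 dpi cells of the same gate. The 3 dpi cells had a median of 3.11% of UMIs from S100a8 and S100a9, against 34.4% at 14 dpi, and Ly6g in 15 of 732 cells. Pf4, a platelet and myeloid chemokine, was found in 569 of them, so the neutrophil label held less well at 3 dpi, and a difference below can be one of which cells the gate took. The macrophage markers summed to 6251.8 CPM at 3 dpi and 2641.9 at 14 dpi. The platelet markers summed to 663 and 2 CPM, of which Pf4 itself gave 649 and 1.5 CPM. Whether the gate or the time point set a difference cannot be told apart.

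Of 3009 genes with at least 200 UMIs, 298 (9.9%) were at least 2-fold higher and 1102 (36.6%) lower at 14 dpi, with a median of -0.62. TMM factors added 1.14 to every log2 ratio and gave 993 higher and 289 lower, so the split between the directions depends on the scaling. Granule and surface genes were among the highest. Ly6g was at 813 CPM at 14 dpi and 20.6 at 3 dpi (5.29, 4.85 to 5.81), in 452 of 666 cells at 14 dpi. Retnlg, a gene of the gate, was at 20652.3 against 994 CPM (4.38, 4.31 to 4.44) and Cd177, the surface partner of proteinase 3, at 943 against 48.2 CPM (4.28, 3.99 to 4.61).

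Secondary granule genes were at least 2-fold higher in 14 of 16 with 0 lower (median 3.93, against 6.64% higher, 52.3% lower and a median of -1.07 among the 8463 genes with at least 20 UMIs). Chil3 was an exception, at 1690.5 CPM at 14 dpi and 3183 at 3 dpi (-0.91, -0.96 to -0.86), a direction that TMM scaling turns, and in 600 of the 732 3 dpi cells. Olfm4, a granule glycoprotein carried by a subset of neutrophils, was in 34 cells at 14 dpi and 6 at 3 dpi (149 against 4.33 CPM, 5.02, 4.12 to 6.33). The other genes with the highest ratios were Prss34, whose UMIs lay mostly in 1 cell, 1700047M11Rik, Adpgk, Ifit1bl2 (one of several similar copies), B230208H11Rik and Cmpk2.

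The inflammatory list was at least 2-fold lower at 14 dpi in 14 of 18 and higher in 0 (median -2.73), and immediate early genes in 15 of 20 with 0 higher (median -2.05). Il1b was at 1393.2 CPM at 14 dpi and 10753.3 at 3 dpi (-2.95, -2.99 to -2.91), and Tnf, the cytokine that primes neutrophils, at 38.3 against 762 CPM (-4.31, -4.56 to -4.07). All 7 MHC class II genes were lower (median -2.95), and so were 64 of 78 ribosomal protein genes (median -1.55). The 83 oxidative phosphorylation genes (51 lower, median -1.21) lay near the shares of all genes. Interferon response genes were at least 2-fold higher in 13 of 20 and lower in 1 (median 1.56), so the interferon and inflammatory lists went in opposite directions between these libraries.

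On the receptor list 2 of 18 genes were at least 2-fold higher and 5 lower (median -0.34, 0.80 under TMM scaling). Cxcr2 was at 890 CPM at 14 dpi and 704 at 3 dpi (0.34, 0.25 to 0.43), and Csf3r at 488 against 1124.3 CPM (-1.21, -1.30 to -1.12). TMM factors add 1.14 to both ratios. Both are genes of the gate, as are Il1r2, Hdc and G0s2 on this list. The 3 dpi cells were shallower (median 2357.5 against 5007.5 UMIs), so the levels of these genes were partly set by the rule. The medians of the primary granule (-0.37, 4 higher and 5 lower of 10), transcription factor (-0.42), NADPH oxidase (-0.12) and glycolysis lists (-0.40) also turned positive under TMM scaling. Among the lowest ratios were those of Pf4, Ccl7, Gm19951, Dpep2, Ecm1, Cxcl1, F13a1, Gpnmb and Fn1. Fn1, fibronectin, was at 7.51 against 367 CPM (-5.59, -6.19 to -5.08) and Gpnmb, a glycoprotein of lipid-laden macrophages, at 7.26 against 362 CPM (-5.62, -6.23 to -5.10).

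The granule-low set of 14 dpi was set against the 3 dpi cells in turn, since both held few or no granule UMIs. Of 1797 genes with at least 200 UMIs, 185 were at least 2-fold higher (10.3%) and 500 lower (27.8%), and among the 7540 genes with at least 20 UMIs the shares were 6.75% and 40.5% with a median of -0.74. Interferon genes were at least 2-fold higher in 18 of 20 with 0 lower (median 2.76). Isg15 was at 1683.2 against 74.1 CPM (4.50, 4.25 to 4.77) and Slfn4, a Schlafen family member of myeloid cells, at 1890.9 against 118 CPM (3.99, 3.79 to 4.21). Bst2, tetherin, was at 67.4 against 80.6 CPM (-0.25, -0.76 to 0.22).

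Il1b was at 5672.8 CPM in the granule-low set and 10753.3 at 3 dpi (-0.92, -0.97 to -0.87), and Cxcl2 at 7701.3 against 11334.9 CPM (-0.56, -0.60 to -0.51). Of 18 inflammatory genes 3 were at least 2-fold higher and 8 lower (median -0.84), which is near the share and median of all genes. Tnf was at 107 against 762 CPM (-2.83, -3.19 to -2.50), while Ccl6 was at 1909.2 against 419 CPM (2.19, 2.06 to 2.32) and Osm at 438 against 122 CPM (1.84, 1.59 to 2.09). Ly6g was at 305 against 20.6 CPM (3.87, 3.39 to 4.43) and Cxcr2, a gene of the gate, at 1712.6 against 704 CPM (1.28, 1.17 to 1.40). The plot of list sums sets the sets beside the libraries.

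**Figure D5:**
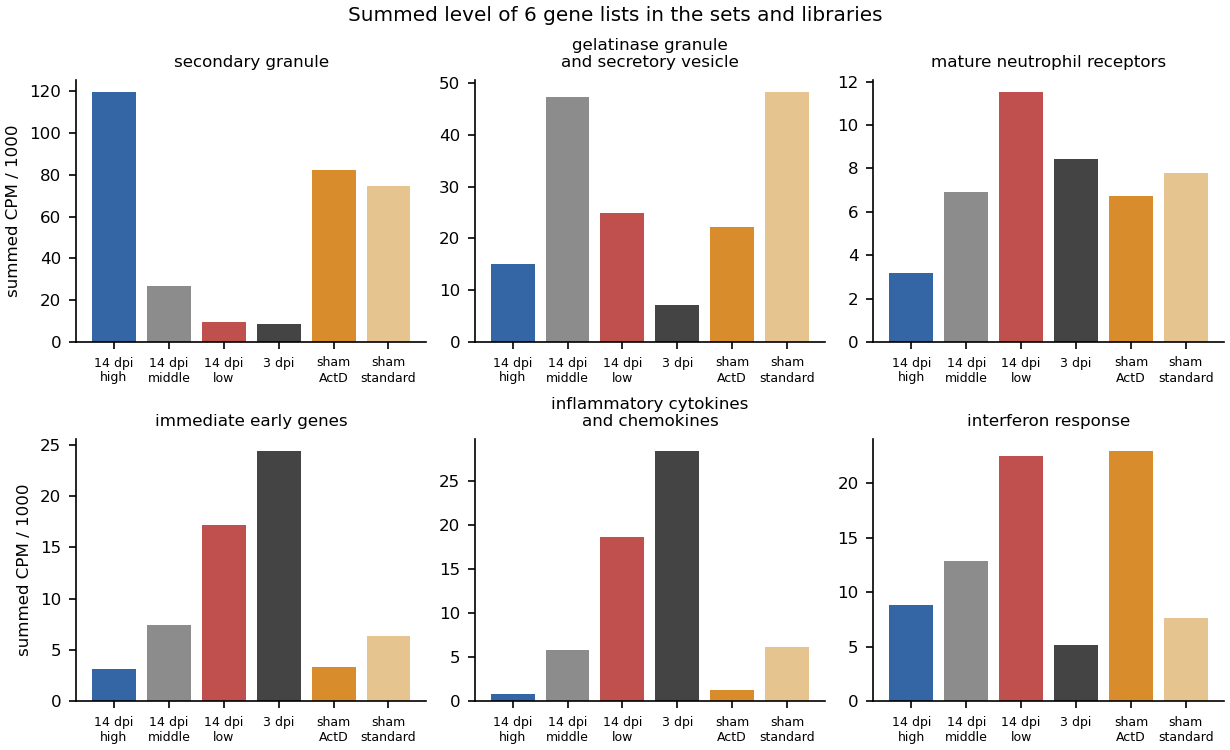
Summed level of 6 gene lists (y axis, CPM divided by 1000, from 0) in the 3 sets of the 14 dpi neutrophils and in the 3 dpi, ActD sham and standard sham cells of the same gate, 1 value per bar and no replicates. Secondary granule genes fall from 119643 CPM in the high set to 9495.3 in the low set, inflammatory genes rise from 820 to 18621.5, and the interferon list is at 22451.1 in the low set, 5193.5 at 3 dpi, 22919.3 in the ActD sham and 7646.8 in the standard sham.

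Against the 39 cells of the ActD sham, the library with the same dissociation, 82 of 2070 genes (3.96%) were at least 2-fold higher at 14 dpi and 61 (2.95%) lower, with a median of -0.07, to which TMM factors added 0.14. With Csf1r not used, 496 of 4093 genes were higher and 94 lower, and with male cells 52 and 25 of 789, of which 16 and 1 were among the 82 and 61. In summed CPM, to which deep cells add most, the granule genes differed by less than 2-fold. Ngp was at 20707.9 CPM at 14 dpi and 20598.6 in the ActD sham (0.01, -0.02 to 0.04), Camp at 19691.7 against 13642 CPM (0.53, 0.50 to 0.56) and Ltf at 7174.5 against 10165.5 CPM (-0.50, -0.54 to -0.46), and of 16 secondary granule genes 1 was at least 2-fold higher (Orm1) and 0 lower (median -0.37). Ly6g was at 813 against 758 CPM (0.10, -0.05 to 0.25). Counted by cells the granule genes were lower at 14 dpi, with a median of 0.224% of UMIs from Ltf, Camp and Ngp against 2.39%, and 139 of 666 cells against 2 of 39 without such a UMI. After thinning to 1000 UMIs, Camp gave a UMI in 50.8% (46.9 to 54.6) of cells at 14 dpi and 71.8% (55.1 to 85.0) in the sham, and without thinning in 62.8% and 79.5%, with 10.5% and 33.3% in T cells.

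Inflammatory and immediate early genes were higher at 14 dpi than in the ActD sham. Of 16 inflammatory genes 10 were at least 2-fold higher and 1 lower (median 2.02, or 1.47 with genes at 0 set at their bound, against 9.61% higher, 6.85% lower and a median of -0.08 among all 6719 genes with at least 20 UMIs). Of 19 immediate early genes 11 were higher and 0 lower (median 1.37). Il1b was at 1393.2 CPM against 145 in the ActD sham (3.26, 2.95 to 3.60), and Ccl3, a chemokine for monocytes and neutrophils, at 187 against 3.62 CPM (5.37, 3.84 to 8.74). All 6 MHC class II genes with enough UMIs were at least 2-fold higher too (median 2.37, 1.77 with bounds), and 5 of 6 against the standard sham (median 1.39, against 13.4% higher and 5.87% lower among the 6928 genes with at least 20 UMIs). The MHC class II list was at 177 CPM, however, below the 614 CPM of the T cells of the library. After thinning, H2-Aa gave a UMI in 3% of the gate and 2.41% of T cells, and Cd74 in 6.01% and 6.11% (11.4% and 10.1%, and 24.8% and 26.2%, without thinning), so these shares are read as background and not as expression. Markers of other cells stood higher as well, with the macrophage list at 2641.9 CPM against 125 in the ActD sham and 193 in the standard sham, and the microglial list at 930 against 411 and 481 CPM. Their part in the result was not tested.

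Egr1, an early growth response factor, was at 144 against 5.43 CPM (4.51, 3.17 to 7.01), on 3 UMIs in the sham. Against the standard sham, dissociated without ActD, the same lists had medians of -0.21 and -0.02, Il1b was at 1453.6 CPM in that sham (-0.06, -0.14 to 0.02) and Ccl3 at 218 CPM (-0.22, -0.43 to -0.01). Against the standard sham 129 of 2251 genes (5.73%) were higher and 115 (5.11%) lower. The 2 sham libraries therefore gave different answers for these lists, and the 14 dpi library shared its dissociation only with the ActD sham.

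The interferon list went the other way. Of 20 genes 0 were at least 2-fold higher and 14 lower than in the ActD sham (median -1.24), and 11 higher and 0 lower than in the standard sham (median 1.24, against the 13.4% and 5.87% of all genes). Ifi27l2a, an interferon-induced mitochondrial protein, was at 625 CPM at 14 dpi, 3123.8 in the ActD sham (-2.32, -2.41 to -2.23) and 491 in the standard sham (0.35, 0.22 to 0.48). With only male cells, of which the ActD sham had 5, the interferon median was 0.51 and the inflammatory median -0.46. The directions of both lists against sham thus changed with the sham library and in the male cells, where the sex and the number of sham cells changed together.

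Lipg, an endothelial-type lipase, had the lowest ratio against the ActD sham, at 16.3 against 326 CPM (-4.32, -4.76 to -3.91), but 0.42 with male cells only and 1.82 against the standard sham. Prok2, a prokineticin of neutrophils, followed at 62.8 against 467 CPM (-2.89, -3.15 to -2.64), with 1.17 and 0.91 in the same alternatives. The other lowest were Xaf1, Zbp1, Ifit1, Gbp7, Slfn5, Oasl2 and Rsad2, all of which turned positive against the standard sham.

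Of the highest, Ccrl2, a chemerin-binding receptor, had 443 UMIs against 0 and was at least 20.4-fold higher, and Ccl5 had 220 against 0, at least 10.1-fold higher, with 111 of its UMIs in 1 cell and Ccl5 at 3537 CPM in T cells. Apoe was at 2555.8 against 59.7 CPM (5.40, 4.93 to 5.96) but at 2527.8 CPM in the T cells of the same library, and Spp1 at 158 against 1.81 CPM (5.87, 3.97 to 11.76) but at 113 CPM in those T cells, so both stood near the level of cells that should lack them. Crip1 was at 55.6 CPM against 1479.8 CPM in T cells. The others were Ccl4, Clec4n and Prss34. Ccl4 gave a UMI in 15.6% of the gate, 15.6% of T cells and 33.2% of microglia of the same library. After thinning to 1000 UMIs these shares were 8.86%, 4.34% and 11.6%. Prss34 had 206 UMIs against 0, but 201 of them lay in 1 cell, so its ratio rested on that cell.

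The outer sets were each set against the whole ActD sham gate, a mixture of granule-rich and granule-poor cells that both comparisons share. In the granule-low set, all 19 immediate early genes were at least 2-fold higher (median 2.72), 11 of 14 inflammatory genes were higher and 2 lower (median 3.67, 3.33 with bounds) and of 20 interferon genes 1 was higher and 1 lower (median -0.32), against 20.2% of all genes higher and 9.71% lower (27.1% and 7.33% of the genes with at least 200 UMIs). In the granule-high set, 3 of 17 immediate early genes were higher and 1 lower (median 0.02), 2 of 12 inflammatory genes higher and 2 lower (median -0.36), and of 20 interferon genes 0 were higher and 19 lower (median -2.95), against 5.4% higher and 10.9% lower (1.89% and 8.14% of the genes with at least 200 UMIs). Il1b was at 149 CPM in the granule-high set, 5672.8 in the granule-low set and 145 in the ActD sham. Like sets gave another direction for the inflammatory list of the granule-high cells, which summed to 820 CPM at 14 dpi and 214 in the granule-high set of the ActD sham (13 cells), and in the granule-low sets it summed to 18621.5 and 3357.9 CPM. The interferon list was at 8784.5 against 16307.1 CPM in the granule-high sets and 22451.1 against 30945.2 CPM in the granule-low sets.

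Cells that met every other criterion but held a UMI of Elane, Mpo or Mki67 were mostly rich in granule UMIs. There were 221 such cells, with a median of 12850 UMIs and a median of 8.66% of UMIs from Ltf, Camp and Ngp, and 19 had no such UMI. Of 2433 genes, 76 (3.12%) were at least 2-fold higher in the granule-high set and 469 (19.3%) lower. All 18 cell cycle genes were lower (median -4.75), which the use of Mki67 to leave these cells out partly fixed. On the primary granule list, 4 of 10 genes other than Elane and Mpo were lower and 0 higher (median -0.69). Of 77 ribosomal protein genes, 55 were lower (median -1.19). Among all genes with at least 20 UMIs, 3.8% were higher and 27.3% lower, with a median of -0.34.

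Gelatinase granule genes were already higher in the granule-high set than in those cells, in 8 of 14 with 0 lower (median 1.13), or 6 of 12 without Mmp9 and Retnlg (median 0.98). Mmp8 was at 2300 against 554 CPM (2.05, 1.97 to 2.13) and Mmp9 at 1760.2 against 502 CPM (1.81, 1.73 to 1.89). Cebpe was at 323 against 631 CPM (-0.97, -1.09 to -0.84) and Fcnb at 103 against 991 CPM (-3.26, -3.47 to -3.07), so both of these were higher again in the cells with Elane, Mpo or Mki67. Camp and Ngp differed by -0.31 and -0.05 on the log2 scale.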

How the data were processed

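CD45+ cells were profiled as 4 libraries of 10x 3′ RNA, 1 per condition. The values are UMI counts deposited by the authors as filtered matrices, made with Cell Ranger 3.0.1 (standard sham, 3 dpi) or 3.1.0 (ActD sham, 14 dpi) on mm10, per the file headers and the submitters' processing notes. The 14 dpi library held 129935880 UMIs in 11631 barcodes, 3 dpi 125270696 in 10763, the standard sham 60412094 in 6827 and the ActD sham 27447471 in 2439. A difference of version between libraries could change which barcodes were kept.

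The members and the gene lists were chosen with earlier results of these data known. UMIs were summed over the cells of a set and divided by their total (Python 3.11.15, numpy 2.4.6, scipy 1.17.1, scanpy 1.11.5). Log2 ratios had 0.5 UMI added and exact conditional Poisson intervals, shares exact Clopper-Pearson intervals, and both cover counting error only. Called means at least 2-fold. T cells had UMIs of at least 2 of Cd3d, Cd3e and Cd3g and none of Csf1r or Cd79a, and microglia UMIs of P2ry12, Csf1r and a further marker. With 1 library per condition no test was run.

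Named genes were those of the gate, the 10 highest and 10 lowest ratios of each main comparison (at least 200 UMIs, without sex-linked, mitochondrial, haemoglobin, immunoglobulin, ribosomal and ordering genes) and, where a list was described by examples in the comparison of the outer sets, its 5 members with the most UMIs there. Other list members, such as Prtn3, Hp, Cebpe, Cd14 or Cxcr4, and the examples of the comparisons between libraries were chosen after their values were seen. Some genes that the rule takes in are not reported here. Doublets were kept, 13 cells of the gate having been marked by Scrublet at 0.8% per 1000 barcodes, and removed in an alternative. TMM factors came from edgeR 4.0.16 in R 4.3.3. On Poisson counts simulated with known totals, 95.1% of the intervals for the 2 outer sets (1377 genes) held the true value. Such counts have no spread between cells beyond counting error, so this checked the calculation only. Of 31053 gene IDs, 31011 were found in GENCODE M21, which gave gene coordinates, and 0 columns were unmapped. Motifs were searched on both strands of the 250 bases before the RefSeq start of each gene.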

Additional observations from a re-analysis of the deposited data

Results flagged for a closer look

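Cells that the gate left out for a Csf1r UMI alone lay outside the main comparisons. They entered comparisons only in the alternative with Csf1r not used. They met the S100a8 and S100a9 minimum and the receptor and enzyme criterion, so their neutrophil signal was partly set by the rule. In these 454 cells a median of 25.2% of UMIs came from S100a8 and S100a9, against 0.0779% in the T cells of the same library, with 0.117% from the granule genes and Apoe at 29877 CPM. Scrublet marked 129 of them as doublets. The 221 cells left out for Elane, Mpo or Mki67 had a median of 8.66% of UMIs from Ltf, Camp and Ngp, against 0.0142% in the T cells, and a median of 33.5% from S100a8 and S100a9.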

How the results depend on the processing

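No paired analysis was possible because each condition had 1 library, and no library could be left out of a comparison. The cause of the changes below was not tested unless the alternative itself has fewer cells or genes. The gate held 1120 cells with Csf1r not used, an alternative added after seeing the data, like the depth and total alternatives. Genes at least 2-fold higher and lower in the granule-high set numbered 132 and 383, but 68 and 148 with the outer 10% of cells on each side, 45 and 139 with male cells, 15 and 14 with female cells (53 genes tested, 12 and 13 shared and 0 of those tested 2-fold the other way), 215 and 786 with Csf1r not used, 23 and 76 with cells of 2000 to 5000 UMIs, 56 and 140 with at least 5000 UMIs, 258 and 212 with TMM factors, 367 and 1004 with at least 50 UMIs a gene, and 262 and 205 with totals without S100a8, S100a9, Ltf, Camp and Ngp. Ordering by Lcn2, Chil3, Mmp8 and Cd177 shared 115 of the 132 and 359 of the 383.

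Against 3 dpi, the 298 higher and 1102 lower became 154 and 325 with male cells, 993 and 289 with TMM factors and 474 and 2967 with at least 50 UMIs. Against the ActD sham, the 82 higher and 61 lower became 52 and 25 with male cells, 496 and 94 with Csf1r not used, 295 and 216 with at least 50 UMIs, and 129 and 115 with the standard sham. Of the 52 and 25 with male cells (789 genes tested), 16 and 1 were among the 82 and 61, and 1 and 1 of the 82 and 61 that were tested were 2-fold the other way. Of the 129 and 115 with the standard sham, 22 and 0 were among them, and 7 and 15 of those tested were 2-fold the other way. The higher count became 49 with cells of 1000 genes or more and 5% mitochondrial UMIs or less and 136 with means of per-cell shares.

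With male cells, the log2 ratio against the ActD sham turned to 0.42 for Lipg, 1.17 for Prok2, 4.02 for Ifi27l2a, 1.23 for Zbp1, 0.55 for Ifit1, 0.29 for Gbp7, 2.11 for Slfn5 and 2.33 for Rsad2, and the median to 0.51 for the interferon and -0.46 for the inflammatory list. With the standard sham it turned to -0.22 for Ccl3, 1.82 for Lipg, 0.91 for Prok2, 1.02 for Xaf1, 0.35 for Ifi27l2a, 1.63 for Zbp1, 1.85 for Ifit1, 1.55 for Gbp7, 2.57 for Slfn5, 1.58 for Oasl2 and 0.95 for Rsad2, and the medians to -0.01 for immediate early, 1.24 for interferon and -0.19 for inflammatory genes, over the genes with enough UMIs against the ActD sham. Of the other single genes and lists, 384 values moved beyond their interval and 754 did not. Among these, 49 list medians of at most 0.50 in size changed sign, 11 of them with TMM factors. The ActD sham held 39 cells in the gate, which limits every value against it.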
